A study of Drosophila melanogaster with 2 samples.

Results

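The Polycomb and Trithorax group genes were described in 2 RNA immunoprecipitation (RIP) libraries of fly ovary. The members were 44 genes, chosen by symbol out of 17720 genes listed. The choice was made with earlier results of these data known. By the complexes in which their proteins act, 19 were placed with the Polycomb group and 25 with the Trithorax group. All 44 symbols were found in both tables. In RIP, a protein is precipitated with an antibody and the RNA that comes down with it is sequenced. Ovaries of Oregon-R, a wild-type strain of Drosophila melanogaster, taken from about 200 females per RIP no more than 12 hours after eclosion, gave 1 lysate that was divided between an antibody against Lsd1, a histone demethylase, and a control antibody. The control is titled IgG-RIP, and its label names an antibody against GFP. Neither group carries a transgene or a treatment in its labels. Each group had 1 library, so no difference between the groups was tested and no p-value is given.

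Polycomb and Trithorax proteins hold genes in an inactive or an active state through cell divisions, and both groups are best known for the control of the homeotic genes. Polycomb repressive complex PRC2 methylates lysine 27 of histone H3. PRC1 binds that mark and ubiquitinates histone H2A, and PhoRC brings both to DNA elements. On the Trithorax side, COMPASS complexes methylate lysine 4 of histone H3, and ATP-driven remodellers of the SWI/SNF, ISWI, CHD and INO80 families move or exchange nucleosomes. In the fly ovary, Polycomb proteins are known to act in germ cells and in follicle cells. The values below are of the mRNAs of these genes, not of their proteins or of DNA bound by them.

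The values were FPKM, the number of fragments scaled by transcript length and by library size, each deposited with an interval. From that interval an approximate number of fragments was derived, 2661722 in all for the IgG-RIP library and 2494964 for the Lsd1-RIP library. A gene was eligible if both libraries gave an estimate and its FPKM averaged at least 1, which held for 6025 genes. The measure, called the log2 ratio, was taken after 1 had been added to each FPKM, Lsd1-RIP over control, which makes differences of weakly listed genes look smaller than they are. Its median over eligible genes was 0.32, with the middle 50% of genes from 0.13 to 0.52, and ratios are read against that median. The tissue label was checked with marker genes. The 6 germline markers summed to an FPKM of 136 with the control antibody and 253 with anti-Lsd1, with none at 0. Of these sums osk alone gave 91.9 and 165. The 6 follicle cell markers summed to 14.4 and 17.1. Among the other marker sets, 6 muscle markers summed to 145 and 127 and 5 gut markers to 15.3 and 25.6. The 3 hemocyte markers summed to 1.99 and 4.35 and 5 testis markers to 1.03 and 1.39. Sums were 0.299 and 0.59 for 5 fat body markers and 0.175 and 0.287 for 5 neuron markers. Of the neuron markers 4 were listed at 0 in the control and 2 in the Lsd1-RIP library, of the testis markers 3 and 1, and of the fat body markers 0 and 1. Their part in the results was not tested.

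mRNAs of both groups were recovered at higher FPKM in the Lsd1-RIP library, and their median log2 ratios were nearly the same. The median log2 ratio was 0.61 over 16 eligible Polycomb genes and 0.62 over 24 eligible Trithorax genes, each about 0.3 above the all-gene median. Of these 40 genes, 32 lay above the all-gene median, 13 of the Polycomb and 19 of the Trithorax genes, where 50% of all eligible genes do by construction. The 3 that were at least 2-fold higher, upSET, kis and trx, were all Trithorax genes, and none was 2-fold lower. Among all eligible genes 2.12% reached 2-fold in the higher direction and 0.697% in the lower. By the plain ratio of FPKM, 11 of the 40 were 2-fold or more, 5 Polycomb and 6 Trithorax genes, against 8.75% of all eligible genes listed above 0 in both libraries. This second count takes in genes of low FPKM that the added 1 holds back. ph-p and ph-d, at 0.847 and 0.825 in the IgG-RIP library, reached the minimum FPKM only through the Lsd1-RIP library. Both are counted in the 40, in the 32 and in the separate intervals below, and ph-d also in the 11. Without them, 30 of 38 lay above the all-gene median.

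Counting error sets how far single genes can be read. The deposited intervals of the 2 libraries did not overlap for 32 of the 40 genes, each with the higher value in the Lsd1-RIP library, against 36.1% of all eligible genes. No member had separate intervals with the lower value there, as 1.64% of eligible genes did. These were the same 32 genes that lay above the all-gene median. The other 8, with overlapping intervals, were E(z), Caf1-55, Sce, ash2, Bap60, Iswi, Acf and Ino80. Separate intervals set the 2 libraries against each other, not a gene against the all-gene median. Among the 32, log2 ratio intervals of esc, ph-p, phol, Sfmbt, Asx, trr, wds, brm, Snr1 and Trl began below that median. Genes with more fragments have narrower intervals, and members had a median of 194.8 fragments in the IgG-RIP library against 86.4 for all eligible genes. Among the 30 members with 100 or more fragments in each library, intervals were apart for 25, against 58.1% of all eligible genes with as many. The intervals cover counting error and uncertainty of assignment at most, not the variation between repeated precipitations.

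**Figure D1:**
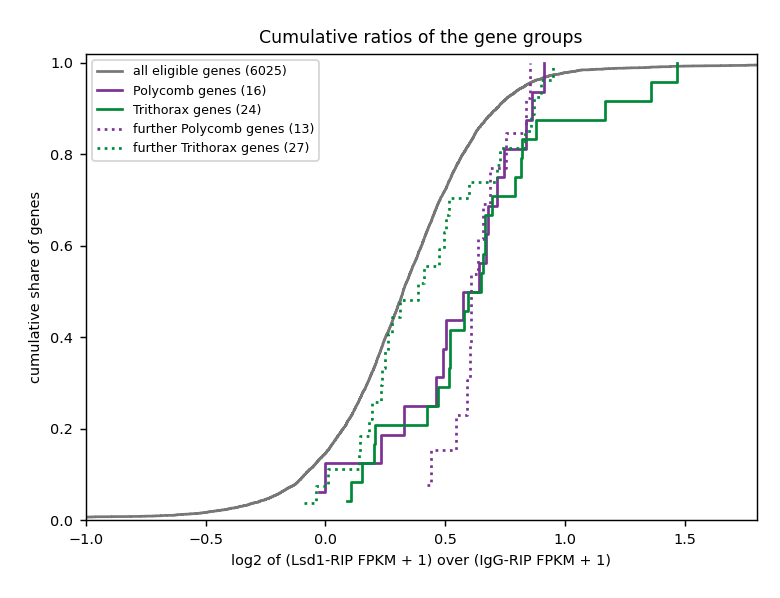
Cumulative share of genes (vertical axis) by log2 ratio of Lsd1-RIP over IgG-RIP FPKM + 1 (horizontal axis) for 6025 eligible genes, 16 Polycomb and 24 Trithorax genes, and the lists of 13 and 27 further genes of each group. The Polycomb and Trithorax curves cross the middle at 0.61 and 0.62, to the right of all genes at 0.32, and of the 4 lists only the Trithorax genes reach past 1.

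FPKM of these mRNAs was low to moderate, and the genes lay in a similar order in both libraries. FPKM is scaled by length, so genes can be set side by side within a library. Both libraries are precipitates, so FPKM here is of RNA recovered with an antibody, not a level in ovary. Over eligible genes, the Polycomb median FPKM was 1.79 with the control antibody and 3.05 with anti-Lsd1, and the Trithorax median was 2.96 and 5.19, which is 1.66-fold and 1.7-fold above Polycomb. All eligible genes had medians of 2.74 and 3.86. The highest members were dom, at 13.99 and 22.5, and Trl, at 11.2 and 15.3. Next in the IgG-RIP library came Caf1-55 at 8.53, E(bx), Bap60, kis and wds, and the intervals of these last 4 all overlapped one another. In the Lsd1-RIP library kis, at 17.5, came second, with an interval that overlapped that of Trl and lay above those of E(bx) and Caf1-55. Across the 43 members above 0 in both libraries, log2 FPKM correlated with a Pearson r of 0.921, as a description across genes that share both libraries.

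**Figure D2:**
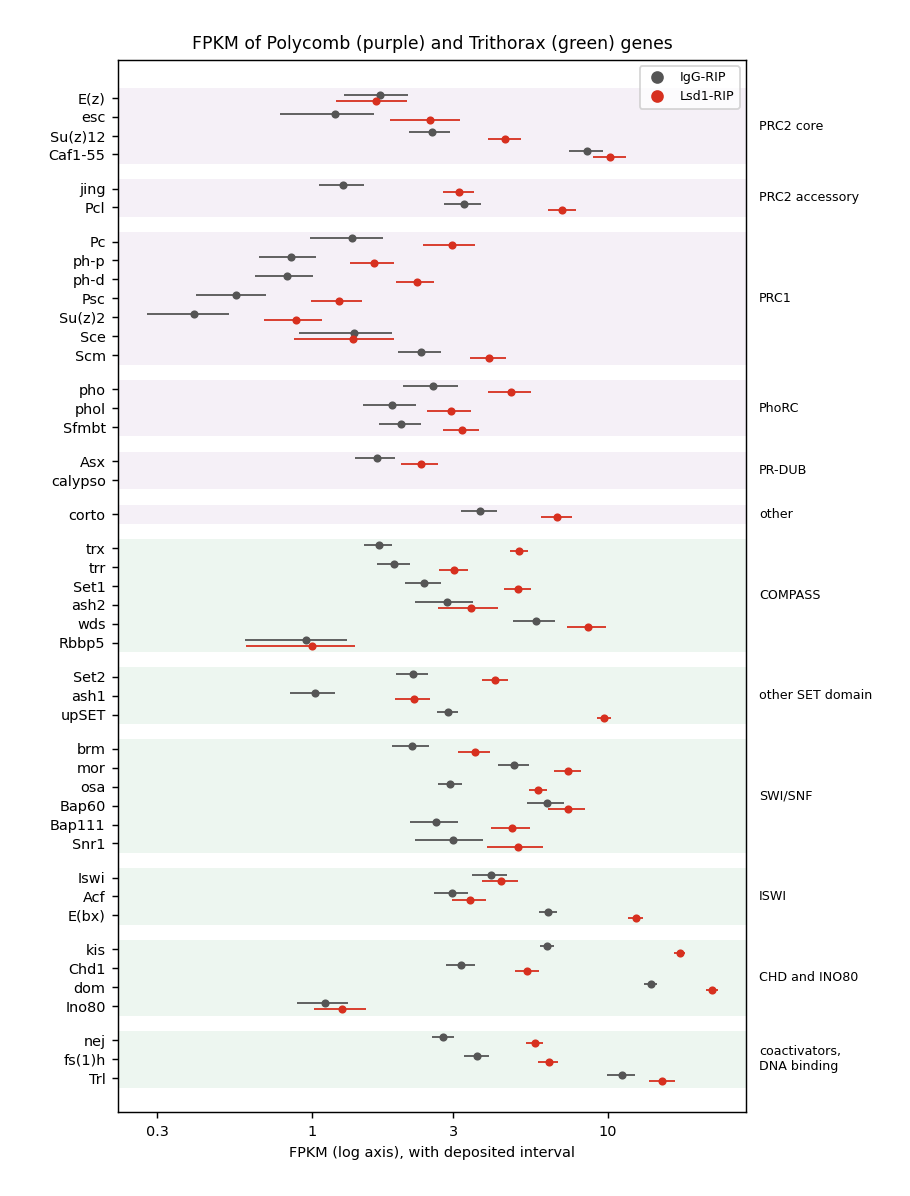
FPKM of each member on a log axis in the IgG-RIP (grey) and Lsd1-RIP (red) library, with bars for the deposited interval, by complex, Polycomb on purple and Trithorax on green ground. calypso, listed at 0 in both libraries, has no point. Points of the libraries lie on top of each other for Sce (1.39 and 1.38) and far apart for upSET (2.88 and 9.74).

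Within PRC2, the enzyme stood apart from most of its partners. E(z), the histone H3 lysine 27 methyltransferase (3L:10634575-10638130), had an FPKM of 1.699 with the control antibody and 1.65 with anti-Lsd1, a log2 ratio of -0.027 (interval -0.36 to 0.30). Su(z)12, a zinc finger subunit that PRC2 needs for activity (3L:19918242-19923462), went from 2.54 to 4.51, a log2 ratio of 0.64 (0.42 to 0.86). esc, the WD40 subunit that reads the methyl mark (2L:11827204-11829405), went from 1.197 to 2.5, a ratio of 0.67 (0.28 to 1.06). Intervals of the libraries overlapped for E(z) and were apart for both of these partners. The difference in log2 ratio from E(z) was 0.67 for Su(z)12 (interval 0.27 to 1.07) and 0.70 for esc (0.19 to 1.21). Caf1-55, a histone-binding subunit shared with other chromatin complexes, was between, at 8.53 and 10.2 and a ratio of 0.23 (-0.01 to 0.47).

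The accessory subunits of PRC2 had the highest log2 ratios on the Polycomb side with 1 added to each FPKM, with intervals that overlapped that of ph-d. By plain fold ph-d, at 2.74, stood above jing at 2.46, and Pc at 2.17 above Pcl at 2.15. Pcl, a protein with Tudor and PHD domains (2R:18135426-18139990), went from 3.26 to 7.02, a log2 ratio of 0.91 (0.70 to 1.12). jing, the fly relative of mammalian AEBP2 (2R:6502006-6621792), went from 1.28 to 3.14, a ratio of 0.86 (0.67 to 1.06). Neither pair of intervals overlapped. The difference between Pcl and E(z) was 0.94 (0.55 to 1.33). jing has the longest locus of all members, 119787 nt, while Pcl has 4565 nt.

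PRC1 subunits were above the all-gene median with 1 exception among the 5 eligible genes. Pc, the chromodomain protein that binds methylated histone H3 (3L:21306138-21318020), went from 1.36 to 2.96, a log2 ratio of 0.75 (0.43 to 1.06). Sce, the RING-type ubiquitin ligase for H2A (3R:27680431-27682029), had 1.39 and 1.38, a ratio of -0.0034 (-0.43 to 0.42). Its intervals overlapped, on 33.4 and 29.0 fragments, and the difference between Pc and Sce was 0.75 (0.22 to 1.28). Scm, a SAM domain protein linked with PRC1 and PhoRC, went from 2.34 to 3.98, a ratio of 0.58 (0.34 to 0.81). Psc, the RING partner of Sce, and its relative Su(z)2 were below the minimum of FPKM. Psc went from 0.555 to 1.24 and Su(z)2 from 0.400 to 0.886, with intervals apart for both, and their plain folds were 2.23 and 2.21.

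The polyhomeotic genes ph-p and ph-d are tandem copies on the X chromosome that encode SAM domain subunits of PRC1. ph-p (X:2126210-2138371) was at an FPKM of 0.847 with the control antibody and 1.62 with anti-Lsd1, a log2 ratio of 0.50 (0.29 to 0.71). ph-d (X:2115727-2123286) had 0.825 and 2.26, a ratio of 0.84 (0.63 to 1.04). Levels of the copies overlapped in the IgG-RIP library, and ph-d was the higher in the Lsd1-RIP library, where its interval began at 1.93 and that of ph-p ended at 1.90. The difference in log2 ratio was 0.33 (0.039 to 0.62). Fragments from stretches the copies share could have been divided between them in more than one way, so this difference is uncertain.

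Genes of PhoRC, the complex that binds Polycomb response elements, lay close together. pho, a zinc finger protein related to mammalian YY1 and the only member on chromosome 4 (4:1172469-1181628), went from 2.58 to 4.72, a log2 ratio of 0.68 (0.38 to 0.97). Its relative phol went from 1.87 to 2.96, a ratio of 0.46 (0.20 to 0.73), and the difference between the pair had an interval that spanned 0 (-0.18 to 0.61). Sfmbt, the MBT-repeat partner of Pho, went from 2.01 to 3.23, a ratio of 0.49. In PR-DUB, which removes ubiquitin from H2A, Asx went from 1.66 to 2.34, a ratio of 0.33 (0.13 to 0.53), at the all-gene median. The gene of the deubiquitinase itself, calypso, was listed at 0 in both libraries and overlaps clu by 216 nt. An FPKM listed at 0 can be a failed estimate, so nothing is said of its level. corto, a chromodomain cofactor with ties to both groups, went from 3.71 to 6.75, a ratio of 0.72 (0.50 to 0.94).

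**Figure D3:**
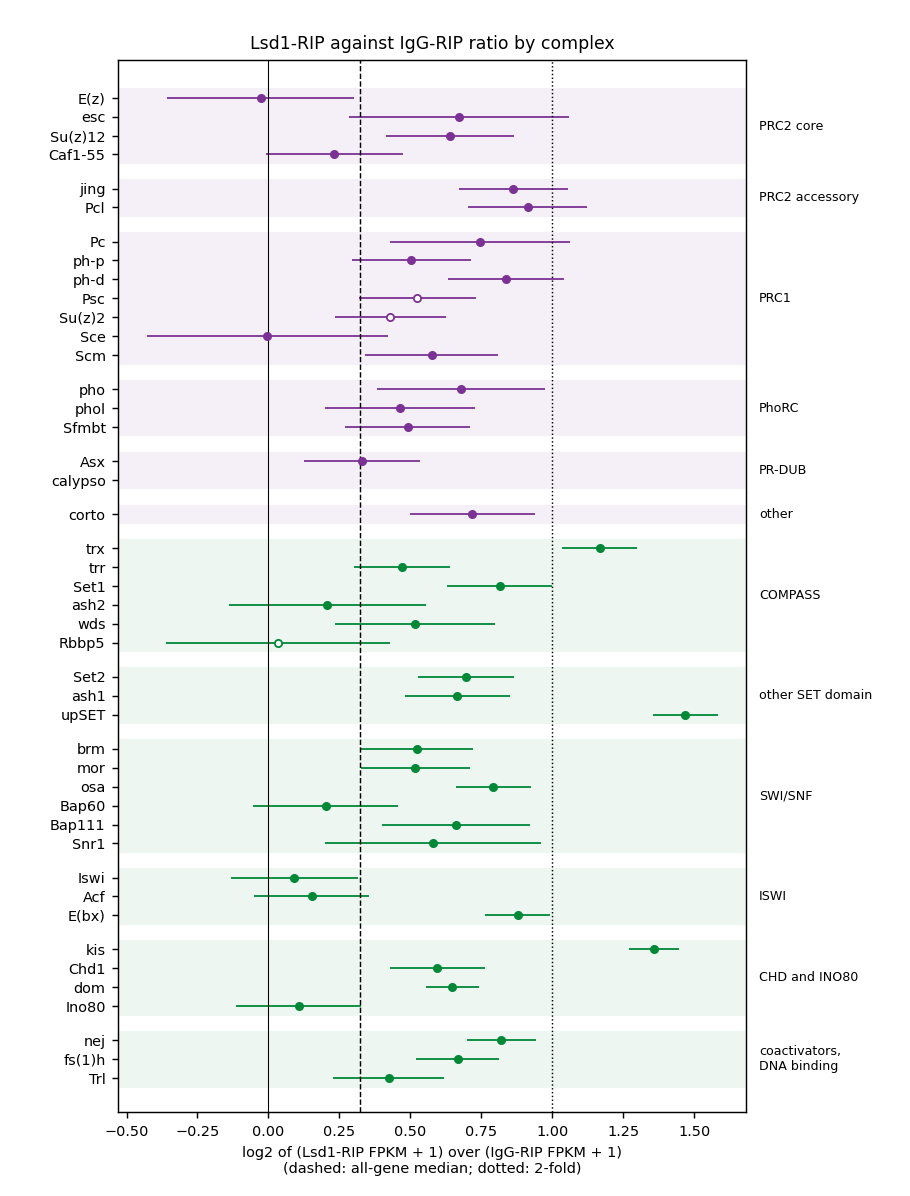
Log2 ratio of Lsd1-RIP over IgG-RIP FPKM + 1 for each member, with its interval, by complex. Open circles are Psc, Su(z)2 and Rbbp5, below the minimum of FPKM, the dashed line is the all-gene median of 0.32 and the dotted line is 2-fold. Only upSET, kis and trx have points to the right of the dotted line, and E(z) and Sce lie at 0.

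The methyltransferases of the 3 fly COMPASS complexes had ratios in the order trx, Set1, trr. trx (3R:14263358-14286903) had an FPKM of 1.68 and 5.03, a 2.99-fold difference. Set1, the main trimethylating enzyme (3L:25107594-25115180), went from 2.40 to 4.98, a log2 ratio of 0.81 (0.63 to 1.0). trr, which places monomethyl marks at enhancers (X:1881313-1889950), went from 1.90 to 3.02, a ratio of 0.47 (0.30 to 0.64). Each step in this order exceeded counting error, with a difference of 0.35 between trx and Set1 (0.12 to 0.58) and of 0.34 between Set1 and trr (0.091 to 0.60).

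The COMPASS subunits that all 3 enzymes share had lower ratios than trx. wds, the fly WDR5, went from 5.71 to 8.59, a log2 ratio of 0.52 (0.23 to 0.80). ash2 went from 2.86 to 3.46, a ratio of 0.21 (-0.14 to 0.55), 0.96 below trx (0.59 to 1.33). Rbbp5 was under the minimum of FPKM, at 0.955 and 1.0, on 28.0 and 24.6 fragments. Intervals of ash2 and Rbbp5 overlapped between the libraries, and those of wds did not.

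Among the other SET domain genes, upSET had the highest ratio of all members. upSET, whose protein keeps histone deacetylase activity at active genes (3L:14002127-14020148), went from 2.88 to 9.74, a log2 ratio of 1.47 (1.35 to 1.58). ash1, a histone H3 lysine 36 methyltransferase (3L:19590773-19598755), went from 1.02 to 2.21, a ratio of 0.67 (0.48 to 0.85). Set2, which trimethylates the same lysine along transcribed genes (X:13413242-13421024), went from 2.20 to 4.17, a ratio of 0.70 (0.53 to 0.86). upSET exceeded ash1 by 0.80 (0.59 to 1.02) and Set2 by 0.77 (0.57 to 0.98). By approximate fragments, the difference between upSET and ash1 was 0.40.

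SWI/SNF subunits ranged less widely. brm, the ATPase (3L:15970082-15982869), went from 2.18 to 3.56, a log2 ratio of 0.52 (0.32 to 0.72), and mor, the scaffold, from 4.84 to 7.36, a ratio of 0.52 (0.32 to 0.71). osa, the ARID subunit that defines the BAP form (3R:17687818-17718350), was the highest, from 2.94 to 5.82, a ratio of 0.79 (0.66 to 0.93). Bap60 was the lowest, from 6.24 to 7.32, a ratio of 0.20 (-0.05 to 0.46), and the only one of the 6 whose intervals overlapped. Bap111, an HMG domain subunit, was at 0.66 (from 2.63 to 4.74) and Snr1, the relative of yeast Snf5, at 0.58 (from 3.0 to 4.98). osa exceeded brm by 0.27 (0.030 to 0.51) and Bap60 by 0.59 (0.30 to 0.88).

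The ISWI genes split by subunit. Iswi, the ATPase shared by NURF, ACF and CHRAC (2R:12636671-12640628), went from 4.03 to 4.36, a log2 ratio of 0.091 (-0.13 to 0.32). Acf, the large subunit of ACF and CHRAC, went from 2.97 to 3.42, a ratio of 0.15 (-0.05 to 0.36). E(bx), the large subunit of NURF (3L:233926-246912), went from 6.30 to 12.4, a ratio of 0.88 (0.76 to 0.99). Intervals of Iswi and Acf overlapped between the libraries while those of E(bx) were far apart. E(bx) exceeded Iswi by 0.79 (0.54 to 1.04) and Acf by 0.72 (0.49 to 0.96).

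Of the CHD and INO80 family remodellers, kis was high and Ino80 low. kis, the fly relative of CHD7 (2L:210735-250823), had an FPKM of 6.22 and 17.5, a log2 ratio of 1.36 (1.27 to 1.45). By approximate fragments it was at 0.95, which is smaller than its 2.82-fold difference in FPKM. Chd1 (2L:2979562-2987723) went from 3.20 to 5.35, a ratio of 0.59 (0.43 to 0.76), and its difference from kis was 0.76 by FPKM but 0.20 by fragments. dom, the ATPase that exchanges histone H2A variants (2R:21323430-21341847), went from 13.99 to 22.5, a ratio of 0.65 (0.56 to 0.74). Ino80 (3R:19368995-19403153) went from 1.11 to 1.27, a ratio of 0.11 (-0.11 to 0.33), 0.54 below dom (0.30 to 0.78) by FPKM and 0.32 by fragments.

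The 3 coactivator and DNA-binding members were all above the all-gene median. nej, the CBP acetyltransferase (X:9665442-9687066), went from 2.78 to 5.69, a log2 ratio of 0.82 (0.70 to 0.94). fs(1)h, the BET bromodomain protein, went from 3.61 to 6.31, a ratio of 0.67 (0.52 to 0.81). Trl, the GAGA factor, went from 11.2 to 15.3, a ratio of 0.42 (0.23 to 0.62). By approximate fragments Trl was at 0.38, below the all-gene median of that measure, 0.43. Pairs of genes were picked after the values were seen, 20 in all, and their intervals are not adjusted for that number. Besides those given above, trx exceeded trr by 0.70 (0.48 to 0.91), and intervals spanned 0 for Psc less Su(z)2, at 0.095 (-0.19 to 0.38), and for Acf less Iswi, at 0.062 (-0.24 to 0.36). By approximate fragments the differences were 1.06 for esc less E(z), 1.14 for Pc less Sce, 0.42 for osa less brm, 0.12 for pho less phol and -0.094 for Psc less Su(z)2.

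Members have long loci and long transcripts, and the ratio was higher for long genes across the whole table. The locus span, which includes introns, had a median of 6179 nt over eligible Polycomb genes, 8400 nt over eligible Trithorax genes and 2797 nt over all eligible genes. Transcript length is not in the tables. Fragments per FPKM stand in for it here, and over eligible genes their median was 55.7 for Polycomb, 96.8 for Trithorax and 31.0 for all genes. Of the 40 members, 33 had a span above the all-gene median, and 28 of those 33, or 84.8%, had a ratio above the all-gene median, against 63.9% of all genes with so long a span. Of the 7 with a shorter span, 4 were above, against 36.1% of all genes with no longer a span. Split by fragments per FPKM, 28 of 33 longer members were above, against 65.3% of all longer genes.

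Among members the ratio went with length in both groups. Across the 40 genes, Spearman's rho of the log2 ratio was 0.54 with fragments per FPKM and 0.51 with locus span (Pearson r with the log of each, 0.56 and 0.52). Across all eligible genes it was 0.40 and 0.36. With fragments per FPKM, rho was 0.72 over 24 Trithorax genes and 0.34 over 16 Polycomb genes, and with span 0.48 and 0.56. These are descriptions across genes that share both libraries, and the fragments come from the same FPKM and intervals as the ratio. The number of RefSeq transcripts per gene had a median of 2 over the 40 members, the same as over 5487 eligible protein-coding genes.

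When genes were set against others of like length, part of the offset remained. Genes were put in 12 groups of equal size by fragments per FPKM. After each group's median was taken off, the median was 0.20 for Polycomb and 0.10 for Trithorax genes, and 27 of the 40 were above 0, where 50% of all genes are. By locus span the medians were 0.22 and 0.19, and 30 of 40 were above 0, against 49.9% of all genes. The longest group, of 456 genes with a median log2 ratio of 0.61, held 19 members, 4 Polycomb and 15 Trithorax, of which 13 were above it. No member was 2-fold from genes of like length. upSET was furthest above, by 0.86, followed by kis by 0.75, trx by 0.56 and Pcl by 0.52. At the other end were Ino80 at -0.50, E(z) at -0.37, Acf at -0.31 and Iswi at -0.30.

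**Figure D4:**
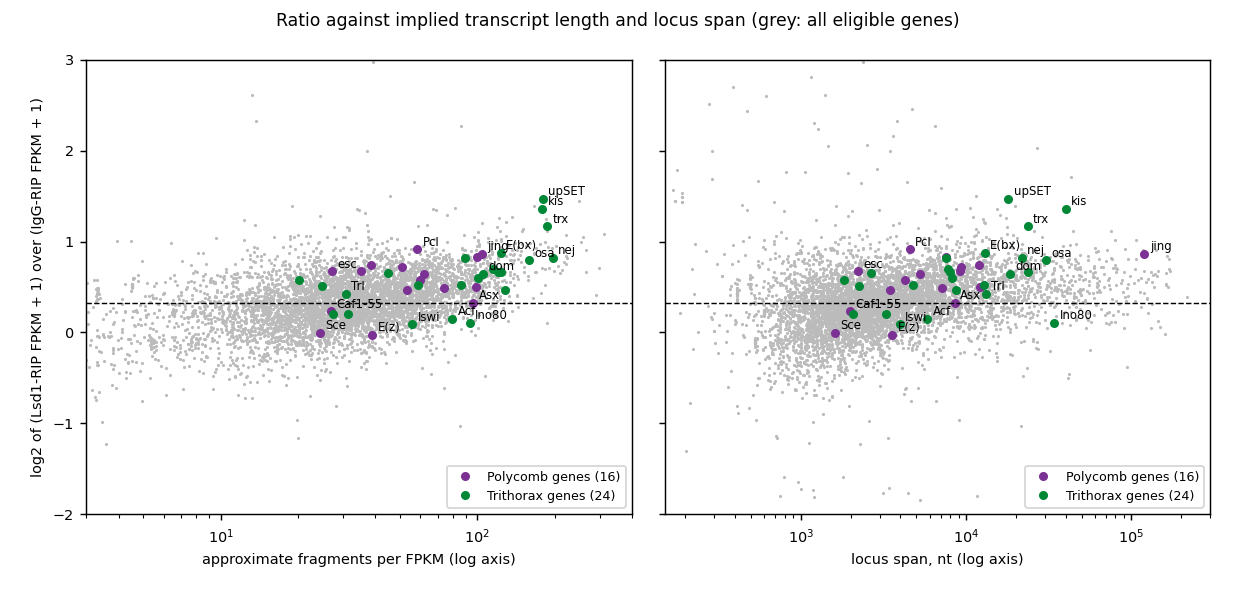
Log2 ratio of Lsd1-RIP over IgG-RIP FPKM + 1 (vertical axis) against approximate fragments per FPKM and against locus span in nt (horizontal log axes) for eligible genes, all in grey, Polycomb in purple and Trithorax in green. The dashed line is the all-gene median of 0.32, and genes beyond the ends of the axes are not drawn. upSET, kis and trx lie at the upper right of the left panel, and Ino80, with a span of 34159 nt, lies below the line.

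Measured by approximate fragments scaled by depth, the group values were much the same. The median was 0.76 for Polycomb and 0.75 for Trithorax genes, 0.33 and 0.32 above the all-gene median of that measure, 0.43. By it 10 of the 40 were at least 2-fold higher, 5 in each group, against 7.27% of all genes with enough fragments. FPKM and fragment ratios differed by over 1.2-fold for kis and upSET, 1.46-fold and 1.23-fold, and by at most 1.12-fold for the other members with fragments. trx had a fragment log2 ratio of 1.499, upSET 1.46, ph-d 1.40 and jing 1.26. By fragments, ph-d and jing, of low FPKM, thus lay nearer to upSET and trx than by FPKM with 1 added. With nothing added, the FPKM log2 ratio was 1.76 for upSET, 1.58 for trx, 1.45 for ph-d and 1.30 for jing.

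Loci of 20 members overlap another annotated locus, and these libraries do not mark strand, so fragments in shared stretches cannot be assigned. Set1 shares 257 nt with MED21, which held 42.1 fragments with the control antibody and a listed 0 with anti-Lsd1, and their summed fragments had a log2 ratio of 0.79 against 1.05 for Set1 alone. trr shares 120 nt with CG14806, which went from 31.0 fragments to a listed 0, and the sum was at 0.45 against 0.62. Pc, which shares 60 nt with CG7632, was at 0.83 in sum against 1.16. Scm shares 315 nt with SpdS, a gene with more fragments than Scm, and the sum was at 0.31 against 0.73. These sums take in all fragments of both genes, also those outside the shared stretch. They therefore do not measure how many fragments were wrongly assigned. For trx, E(z), mor, dom, kis and Trl the summed and single values were equal to within 0.01. The 17 loci within dom, snoRNA genes and a small RNA gene, were all listed at 0 in both libraries.

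Further genes of each group, from lists written beside the members, were examined in the same way. Of 14 further Polycomb genes, 13 were eligible and all 13 lay above the all-gene median, with a median log2 ratio of 0.61 and none 2-fold. The highest was E(Pc), an enhancer of Polycomb, from 2.80 to 5.86 (0.85), and the lowest Kdm2, a histone demethylase gene, from 1.61 to 2.5 (0.42). escl, the relative of esc, was below the minimum of FPKM at 0.863 and 0.744. Of 28 further Trithorax genes, 27 were eligible and 14 lay above the all-gene median, with a median of 0.39 and none 2-fold. tou, a relative of Acf, was the highest, from 1.58 to 3.99 (0.95), and YL-1, a subunit of the dom complex, the lowest, from 1.65 to 1.496 (-0.089). The further Trithorax list had a median of 42.7 fragments per FPKM, against 81.99 in the further Polycomb list and 31.0 over all eligible genes. Set against genes of like length, the medians were -0.028 for further Trithorax and 0.21 for further Polycomb genes. Tip60 was listed at 0 in both libraries and overlaps tyf and dgt4.

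The homeotic and segmentation genes that Polycomb and Trithorax proteins are known to control had a mean FPKM below 1 or were listed at 0. None of the 10 examined reached the minimum of FPKM, and pb, Dfd, Scr, en and inv were listed at 0 in both libraries, which can be a failed estimate. abd-A had the highest level, 0.691 with the control antibody and 0.921 with anti-Lsd1, with overlapping intervals. Antp had 0.178 and 0.278, and Ubx had a listed 0 with the control antibody and 0.0489 with anti-Lsd1.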

How the data were processed

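RNA from an anti-Lsd1 and a control RIP of 1 ovarian lysate was measured, 1 library each. Per the file headers, the authors deposited gene FPKM with interval bounds and a status. Cufflinks, SAMtools 0.1.18.0, Bowtie2 2.0.6.0 and dm6 appear, with no roles given, in the submitters' processing notes. Per the labels' protocols, poly(A) selection was skipped. Loci are on dm6, counted from 1. All 44 members matched a RefSeq gene (Release 6 plus ISO1 MT) with the same coordinates, 43 by symbol and 1 by synonym.

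From the deposited FPKM, log2 ratios with a pseudocount of 1 were computed over genes with status OK whose FPKM averaged at least 1. A deposited bound was read as 2 standard deviations away, and the squared ratio of FPKM to 1 standard deviation gave approximate fragments. Of approximate fragment numbers from 0.5 up to 30, 40.8% and 42.6% lay within 0.02 of a whole number. Fragment ratios, for genes with 20 or more in each library, were scaled by 0.856, the ratio of fragments per FPKM between the libraries over 317 genes with whole fragments. Ratio intervals span 2 standard errors either way. With 1 library per group no test was run. Every member is named. Of the further lists, the highest and lowest eligible genes were to be named, and other genes named there were added after their values were seen. The members and lists were chosen with earlier results of these data known. The calculations were tested on simulated data (Python 3.11.15, pandas 2.3.3).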

Additional observations from a re-analysis of the deposited data

How the results depend on the processing

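Of 14 alternatives, none turned the median of either group below 0 or gave a member 2-fold lower. With a pseudocount of 0.1 the median log2 ratio was 0.83 for Polycomb and 0.72 for Trithorax genes. It was 0.85 and 0.73 with none, and 0.28 and 0.34 with 5. Centred on the all-gene median the medians were 0.28 and 0.30, and scaled to equal sums without ribosomal RNA loci 0.31 and 0.28. Corrected for genes of like implied length they were 0.20 and 0.10, and of like locus span 0.22 and 0.19. The count of members at least 2-fold higher was 11 with a pseudocount of 0.1 and with none, 1 with 5, 5 on the TPM scale, 10 by approximate fragments, 0 under both length corrections and 1 without members that overlap another locus. Members above the all-gene median were 9 of 11 with a minimum FPKM of 5, 18 of 22 without overlapping members and 30 of 38 without ph-p and ph-d. These are counts over fewer genes. The difference of the group medians lay between -0.14, with a minimum of 5, and 0.09, without overlapping members, and took both signs. Over the 9 settings that can change a single member's ratio, 360 such values were recomputed. Of these, 203 moved by more than the half-width of the member's own interval and 157 did not. Moves numbered 35 when centred, 33 with equal sums, and 35 and 34 under the corrections for implied length and locus span. These settings shift many ratios together by design. Changes of sign were counted only for upSET, kis and trx, the members at 2-fold in the main setting, and none occurred. Among smaller ratios, those of Caf1-55, ash2, Bap60, Iswi, Acf and Ino80 went from above 0 to below it when centred. The same genes did so with equal sums and under both length corrections. Corrected for implied length, ph-p (-0.10), Asx (-0.28), trr (-0.14), brm (-0.09) and Chd1 (-0.01) also went below 0. Corrected for locus span, Asx (-0.11) and Trl (-0.08) did. These further genes lay above the all-gene median in the main setting. A member at the level of Sce, on about 30 fragments, has an interval of 0.4 either way, so smaller differences were not detectable at this depth. No paired analysis was possible because each group had 1 library.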
